A study of Homo sapiens with 6 samples.

Results

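The genes described here make cholesterol and fatty acids or control that synthesis. They are 33 genes of these pathways, taken by symbol from the rows of a table of read counts for 19470 genes: 7 of the mevalonate pathway, 11 of the sterol branch, 9 of fatty acid synthesis and desaturation, and 6 regulators of sterol regulatory element-binding proteins (SREBPs) or sterol carriers. RNA-seq was carried out on wild-type HCCC9810 cells, a human cholangiocarcinoma line that models bile duct cancer. Cells received either isolinderalactone (ILL), a plant sesquiterpenoid lactone, at 20 μM or its vehicle DMSO (control), both for 24 h, with 3 libraries in each group and no other line, dose or time. The comparison asks how transcript levels in these cells differ after ILL.

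Nothing in the labels says that the libraries of a group came from separate cultures, so every p-value measures the spread between these libraries, which may be technical. Total counts per library ranged from 34282764 to 37758569, and 13066 genes passed the filter on low counts, including all 33 members. The keratins KRT7, KRT19, KRT8 and KRT18 and the epithelial genes EPCAM and SOX9 were detected in every library, while CFTR had no counts. The 8 genes listed as biliary markers summed to 8805 to 9034 CPM (counts scaled to library size) in control and 8524 to 9016 CPM with ILL. Most of this came from the keratins, and the genes moved both ways. KRT7 rose (log2 fold change 0.64) and EPCAM rose (0.24), while KRT18 (-0.82), SOX9 (-0.56), KRT19 (-0.18) and KRT8 (-0.16) fell. Hepatocyte markers summed to 5.89 to 8.79 CPM in control and 7.05 to 17.6 CPM with ILL, with CYP3A4, TAT and G6PC1 at 0. Most of that sum was ALB, at 4.55 to 6.79 CPM in control and 6.11, 6.97 and 15.5 CPM in ILL replicates 1 to 3. ALB rose by 0.69 on the log2 scale, though its groups overlapped. Fibroblast markers summed to 12.1 to 14.2 CPM in control and 16.8 to 18.4 CPM with ILL, mostly from COL1A1, which rose (0.55). Immune markers summed to 37.8 to 42.3 CPM in control and 113 to 119 CPM with ILL, nearly all of it from CD68, a lysosomal gene that many cell types express, while the pan-leukocyte gene PTPRC had 0 to 9 counts.

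Cholesterol is built from acetyl-CoA through the mevalonate pathway, which ends in farnesyl diphosphate and squalene, and the sterol branch then closes and trims squalene to cholesterol. Fatty acids are built from the same acetyl-CoA by carboxylation, chain assembly, elongation and desaturation. Many of these enzymes are transcribed under SREBP transcription factors, which are held in the endoplasmic reticulum by the escort protein SCAP and the INSIG proteins when sterols are plentiful and are carried to the Golgi for cleavage when sterols run low.

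Transcripts of both pathways were lower after ILL. With a call set at an adjusted p under 0.05 in edgeR's quasi-likelihood test (Benjamini-Hochberg adjustment over all genes tested), 27 of the 33 members fell, 3 rose and 3 did not pass. Among all genes tested 73.1% were called, 36.9% lower and 36.2% higher, so a call alone set no member apart, whereas the split of the calls between lower and higher was 81.8% to 9.09% among the members. A call with a fold change under 0.5 as well was made for 16 members, against 11.4% of all genes tested. None had a fold change above 2, against 12.5% of all genes, and 23.9% of all genes were called with such a change in either direction. The groups did not overlap for 28 members, 25 of them lower in every ILL library and 3 higher, where 75.4% of all genes tested had groups that did not overlap. The median log2 fold change was -0.96 over the members and -0.00 over all genes tested. The members took 0.262% to 0.281% of all counts in the control libraries and 0.137% to 0.141% with ILL.

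**Figure D1:**
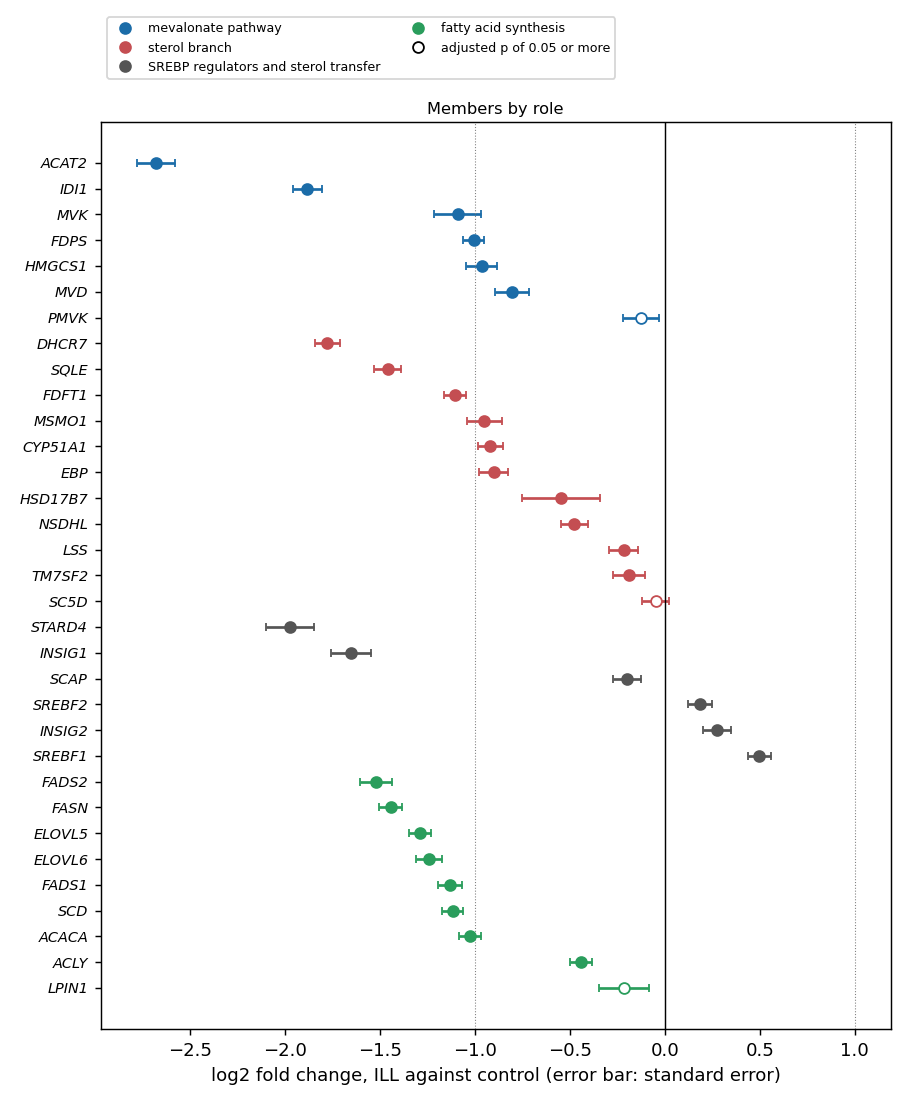
The x axis gives the log2 fold change of each of the 33 members, ILL against control, with its standard error, and colours give the role, with open points at an adjusted p of 0.05 or more. The enzymes of all 3 synthesis groups lie below 0, while the regulators run from STARD4 at -1.97 to SREBF1 at 0.50.

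**Figure D2:**
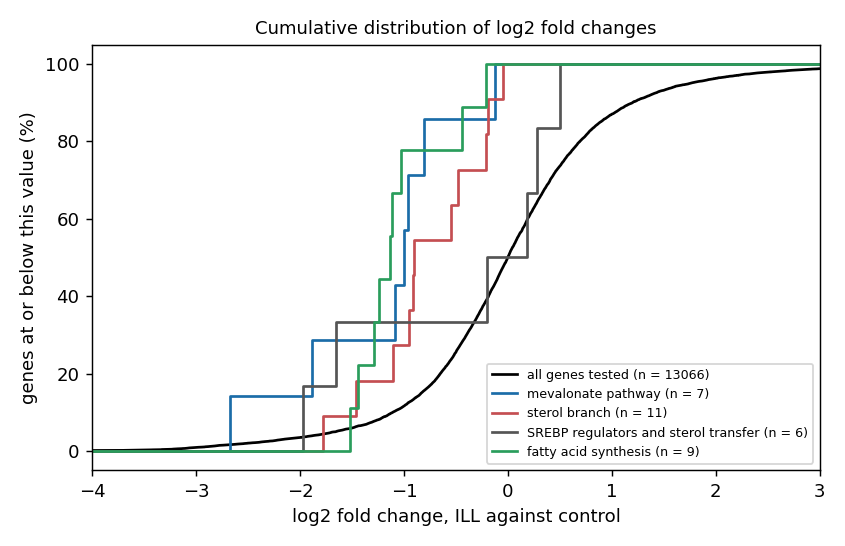
The curves give the percent of genes (y axis) at or below each log2 fold change (x axis) for all 13066 genes tested and, as steps, for the members of each role. The steps of the 3 synthesis groups, with medians of -1.004, -0.90 and -1.13, lie left of the curve of all genes tested except at its lowest values, whose median is -0.00, while the regulators spread to both sides.

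The regulators that set the sterol response went in different directions. INSIG1, which retains the SREBP escort complex in the endoplasmic reticulum and is itself a target of the pathway, had 37.7, 41.8 and 36.8 CPM in control replicates 1 to 3 and 9.85, 14.8 and 12.4 CPM in ILL replicates 1 to 3. The groups lay far apart, with a log2 fold change of -1.65 (SE 0.11, adjusted p = 6.88e-13). On the log2 scale the ILL libraries spanned 0.582 and the control libraries 0.184, while the SD in CPM was 2.45 and 2.68. INSIG2, the other retention protein, had 45.7, 49.5 and 44.8 CPM in control and 62.2, 49.8 and 57.4 CPM with ILL. It rose by 0.28 on the log2 scale (SE 0.07, adjusted p = 0.00204), but its lowest ILL library stood barely above its highest control library, and as FPKM (counts scaled by gene length and library total) its groups overlapped (13.8 to 15.3 against 14.6 to 18.5). Per length, the level of INSIG1 was 1.02 to 1.06 times that of INSIG2 in the control libraries and 0.198 to 0.370 times that of INSIG2 with ILL, as FPKM. The balance of the pair therefore moved in every library.

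STARD4, a soluble carrier that moves cholesterol between membranes, had 20.9, 20.0 and 18.3 CPM in control and 4.74, 4.33 and 6.01 CPM with ILL. It fell by 1.97 on the log2 scale (SE 0.13, adjusted p = 8.02e-13), and only 3.54% of the genes tested had a lower fold change. Both genes for the SREBP transcription factors rose. SREBF1, whose products favour fatty acid genes, had 81.2, 89.4 and 83.1 CPM in control and 115, 128 and 115 CPM with ILL, a log2 fold change of 0.50 (SE 0.06, adjusted p = 6.47e-08) with clear separation of the groups. SREBF2, whose product favours cholesterol genes, had 68.5, 75.4 and 72.5 CPM in control and 80.5, 88.2 and 77.6 CPM with ILL. The change of SREBF2 was smaller, at 0.19 (SE 0.06, adjusted p = 0.00985), with a narrow gap between the groups that closed in FPKM (9.65 to 10.6 against 10.4 to 11.7). That call was lost when libraries were scaled by their total counts alone (adjusted p = 0.0898) and without control replicate 1 (0.0719) or ILL replicate 2 (0.0657). It was also lost in every limma fit on log2 FPKM (adjusted p = 0.134 to 0.164). Per length, the SREBF1 level was 1.68 ± 0.0318 times the SREBF2 level in control and 2.09 ± 0.038 times with ILL (SD, n = 3). SCAP, the escort protein, had 46.8, 50.8 and 55.8 CPM in control and 46.2, 46.8 and 40.7 CPM with ILL. Its groups overlapped in CPM, though not in FPKM (10.5 to 12.5 against 8.71 to 9.96), and its log2 fold change of -0.20 (SE 0.07, adjusted p = 0.0206) was no longer called without control replicate 3 (adjusted p = 0.137) or ILL replicate 3 (0.136).

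**Figure D3:**
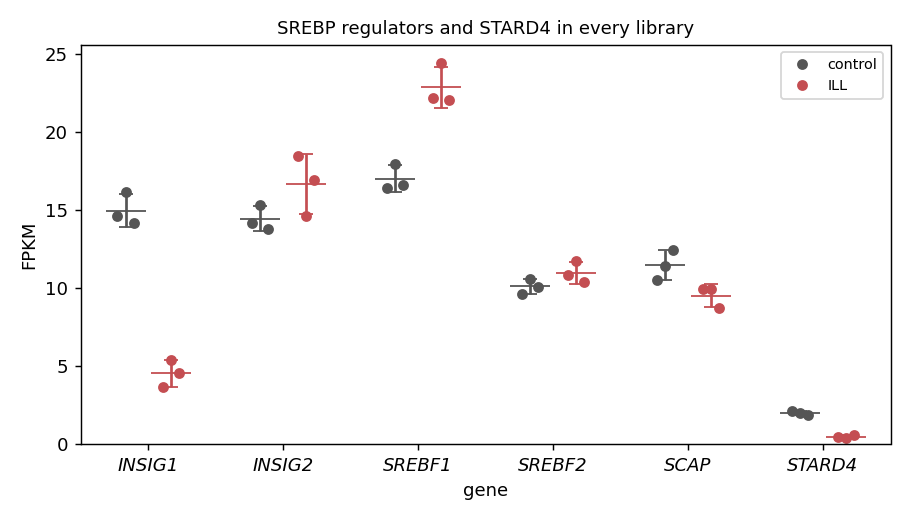
Points give the level (y axis, FPKM) of each of the 6 regulators and carriers (x axis) in every library, with horizontal marks and bars for the mean and SD of each group. INSIG1 and STARD4 are low with ILL in every library and SREBF1 is high, while INSIG2 and SREBF2 overlap between the groups on this scale.

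Start-site sequences of some members are shown because SREBPs are known to act beside the factors NF-Y and Sp1 at promoters of this pathway. The sequences come from RefSeq on GRCh38.p14, in windows from 250 bases before to 50 bases after each start, and 29 of the 33 members had at least 1 window (ACAT2, FASN, FDFT1 and SQLE had no entry). The stretches printed lie before the first base of the gene in the GENCODE release 29 annotation of GRCh38 and run 5′ to 3′ on the gene's strand. Capitals mark CCAAT or its reverse ATTGG, the NF-Y box, and in SREBF2 also TCACCCCAC, a form of the sterol regulatory element written TCACNCCAC. SREBF2 is shown as the 1 member with that element, INSIG1, STARD4, IDI1, MVD and SCD as members that fell, and LSS and TM7SF2 as members that hardly moved. The positions are chr22:41832962-41833013 (plus strand) for SREBF2, chr7:155297698-155297722 (plus) for INSIG1, chr5:111512651-111512706 (minus) for STARD4 and chr10:1049222-1049246 (minus) for IDI1. Those of the others are chr16:88663162-88663260 (minus) for MVD, chr10:100346994-100347061 (plus) for SCD, chr21:46228910-46228934 (minus) for LSS and chr11:65111788-65111812 (plus) for TM7SF2.
SREBF2: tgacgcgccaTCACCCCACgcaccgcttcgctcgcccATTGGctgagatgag
INSIG1: ccggcctcccATTGGttgcggccgc
STARD4: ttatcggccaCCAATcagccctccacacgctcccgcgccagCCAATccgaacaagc
IDI1: cgaaagcgtgATTGGctggcggcgt
MVD: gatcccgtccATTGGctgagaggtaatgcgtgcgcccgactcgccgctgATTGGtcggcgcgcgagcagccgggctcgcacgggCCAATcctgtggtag
SCD: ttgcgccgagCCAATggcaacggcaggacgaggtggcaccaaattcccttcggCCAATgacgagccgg
LSS: cggcgctctgATTGGttgcgtgggc
TM7SF2: ccgagcgccgATTGGctggtgtgct

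Both strands of each window were searched. CCAAT was present in 25 of the 41 windows of members (61.0%), against 34.4% of 15317 windows of genes tested and 34.6% of all 35116 windows. By role it was present in 81.8% of windows of the sterol branch, 66.7% of the mevalonate pathway, 50.0% of fatty acid synthesis and 42.9% of the regulators. GGGCGG, an Sp1 box, was present in 85.4% of member windows and 65.5% of windows of genes tested. TCACNCCAC was found in 1 member window (2.44%), against 1.08% of windows of genes tested. The shorter TCACNCCA, which lies inside it and was searched after the longer form gave 1 window, was found in 3 windows (7.32%), those of SREBF2, MVK and MSMO1, against 3.48% of windows of genes tested. For the 21 members with a CCAAT in a window the median log2 fold change was -0.96, and 10 of them (47.6%) had a fold change under 0.5. The 8 without, CYP51A1, ELOVL6, FADS1, INSIG2, LPIN1, PMVK, SCAP and SREBF1, had a median of -0.21, and 2 of them (25.0%) passed that cutoff. INSIG2, SCAP and SREBF1 among these 8 are regulators, a role with a median of -0.01, while the regulators INSIG1, STARD4 and SREBF2 have the box. ACAT2, FASN, FDFT1 and SQLE, which had no window, fell past 2-fold and are in neither group. Over all genes tested the medians were -0.05 with a CCAAT and 0.01 without, and 13.1% and 9.89% passed the cutoff. These are descriptions, windows of 1 gene can overlap, and the printed windows of LSS and TM7SF2 hold the box although neither fell far.

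In the mevalonate pathway 6 of 7 genes were called lower, 4 of them past 2-fold, with a median log2 fold change of -1.004. Among all genes tested 36.9% were called lower, and 11.4% were lower past 2-fold. The summed level of the 7 genes was 412 ± 22.1 CPM in control and 174 ± 2.78 CPM with ILL (SD, n = 3). ACAT2, the cytosolic thiolase that joins acetyl-CoA units at the entry, had 42.3, 43.3 and 44.3 CPM in control and 5.86, 6.39 and 8.04 CPM with ILL. It was the member that fell most, by 2.68 on the log2 scale (SE 0.10, adjusted p = 1.43e-17), a control level 6.40 times that with ILL. The exons of ACAT2 share 33.9% of their bases with SOD2-OT1, which was not tested, 26.5% with SOD2 and 9.23% with TCP1, all on the opposite strand, and nothing states whether counting used strand, so reads of the overlaps cannot be assigned. SOD2 itself rose (log2 fold change 0.60) and TCP1 fell (-0.94). The shares are of 4299 bases of GENCODE exons, while the FPKM of ACAT2 imply a length of 1821 bases. They need not hold for the gene model behind the counts.

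IDI1, which isomerizes the isoprenoid unit, had 120.0, 135 and 106 CPM in control and 34.1, 30.4 and 33.6 CPM with ILL. Control and ILL libraries were far apart, with a log2 fold change of -1.88 (SE 0.08, adjusted p = 5.9e-17). MVK, the mevalonate kinase, had 21.0, 25.4 and 24.1 CPM in control and 11.3, 13.2 and 8.61 CPM with ILL, and fell by 1.09 (SE 0.12, adjusted p = 2e-08), though by 0.94 without ILL replicate 3, its lowest library. FDPS, the farnesyl diphosphate synthase, had 131, 132 and 126 CPM in control and 67.1, 64.0 and 63.3 CPM with ILL. Its libraries agreed closely within each group, and its fold change of 0.498 put it just inside the 2-fold cutoff. HMGCS1, which makes HMG-CoA, stood just outside at 0.513, having fallen from 37.5 ± 2.12 to 19.2 ± 1.66 CPM (adjusted p = 1.56e-10). MVD, the decarboxylase, fell from 37.4 ± 4.64 to 21.4 ± 1.72 CPM (adjusted p = 1.57e-08). PMVK, the kinase between MVK and MVD, was the exception, with 20.2 ± 1.69 CPM in control and 18.6 ± 0.740 CPM with ILL, overlapping groups and an adjusted p of 0.237. MVK shares 4.72% of its exonic bases with MMAB, which also fell (log2 fold change -1.45), and FDPS shares 18.6% with the antisense gene RUSC1-AS1, which was not tested, and has 8 pseudogenes named after it, among which reads may have been divided. HMGCS1 and IDI1 share 15.0% and 14.8% of their exonic bases with antisense genes that were not tested.

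In the sterol branch 10 of 11 genes were called lower, 3 of them past 2-fold, with a median log2 fold change of -0.90. The shares of all genes tested were 36.9% called lower and 11.4% lower past 2-fold. The summed level of the 11 genes was 666 ± 15.7 CPM in control and 358 ± 7.89 CPM with ILL. FDFT1, the squalene synthase that commits farnesyl units to sterols, had 157, 161 and 162 CPM in control and 80.1, 72.4 and 71.0 CPM with ILL. The control libraries nearly coincided, and the fall was 1.11 on the log2 scale (SE 0.06, adjusted p = 1.04e-14). SQLE, the squalene epoxidase and a rate-limiting enzyme of the branch, had 63.6, 65.6 and 61.3 CPM in control and 24.3, 23.5 and 21.5 CPM with ILL, and fell by 1.46 (SE 0.07, adjusted p = 2.33e-15). At the other end DHCR7, which makes cholesterol from its last precursor, had 103, 112 and 110.3 CPM in control and 33.6, 31.0 and 30.4 CPM with ILL. DHCR7 fell by 1.78 (SE 0.06), with the smallest adjusted p of the members (7e-18).

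Between these ends the steps differed in size. The enzymes that strip methyl groups from lanosterol lay near 2-fold: CYP51A1, the lanosterol demethylase, fell from 85.0 ± 5.27 to 45.0 ± 2.32 CPM (log2 fold change -0.92), and MSMO1, the methyl oxidase, from 45.0 ± 4.24 to 23.3 ± 3.34 CPM (-0.95). CYP51A1 shares 79.4% of its exonic bases with the protein-coding AC000120.2 on the same strand, which was not tested, and the counting could have divided reads between them. Of their partners, NSDHL fell less, from 41.5 ± 0.596 to 29.9 ± 1.20 CPM (-0.48, adjusted p = 1.42e-06). HSD17B7, the low-level ketosteroid reductase of the same step, had overlapping groups at 5.62 ± 0.643 and 3.85 ± 1.13 CPM (adjusted p = 0.0204), and it has 2 named pseudogenes. EBP, the sterol isomerase, fell from 40.2 ± 3.18 to 21.6 ± 0.356 CPM (-0.90). In contrast LSS, which closes squalene epoxide into lanosterol, was at 49.1 ± 4.49 and 42.3 ± 3.77 CPM (-0.22, adjusted p = 0.0152), and TM7SF2, a sterol reductase, at 27.2 ± 1.90 and 23.9 ± 1.06 CPM (-0.19, adjusted p = 0.0445). Both calls were near the threshold: that of LSS was lost without control replicate 3 (adjusted p = 0.124) or ILL replicate 1 (0.119), and that of TM7SF2 without control replicate 1 or 2 or ILL replicate 1 or 3 (up to 0.188) and under DESeq2's Wald test (0.0829). SC5D, a desaturase near the end of the branch, did not pass, at 39.8 ± 2.38 and 38.5 ± 2.17 CPM (adjusted p = 0.567). The call of HSD17B7 was lost without control replicate 3 (adjusted p = 0.0755) or ILL replicate 1 (0.0938) or 2 (0.0854).

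**Figure D4:**
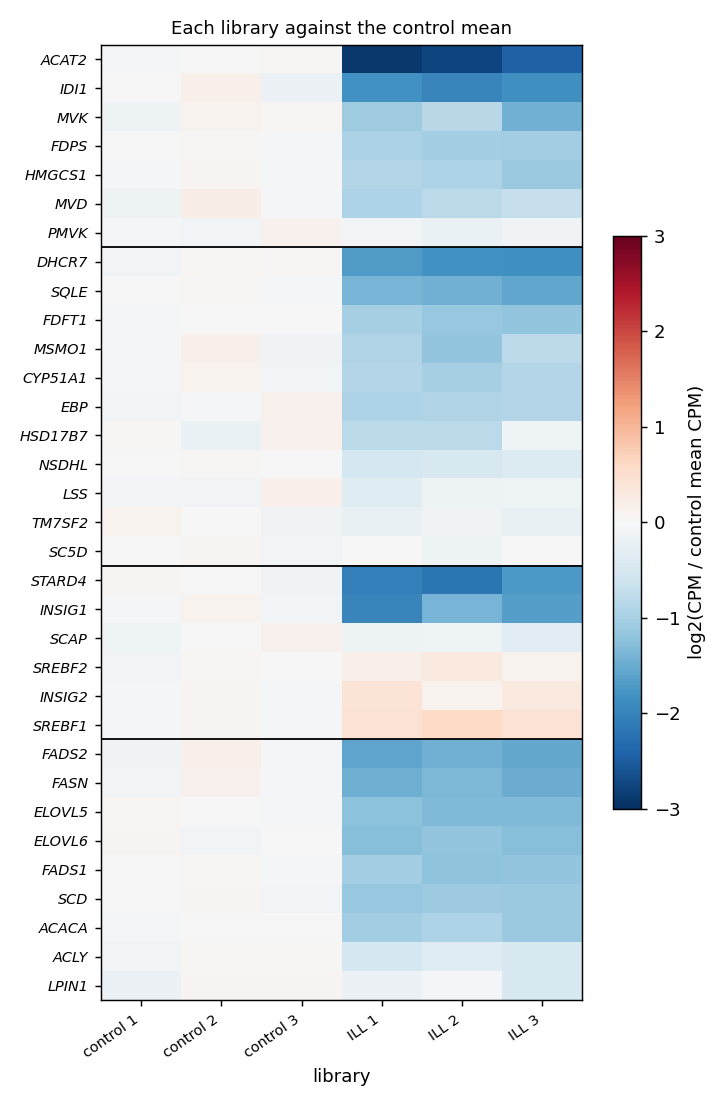
Colours give the log2 level of each member (rows, by role) in each of the 6 libraries (columns) relative to the control mean. ILL libraries are lower for most enzymes, with ACAT2 lowest, while PMVK, LSS, TM7SF2, SC5D and LPIN1 stay near the control mean.

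Fatty acid synthesis fell as broadly, with 8 of 9 genes called lower and 7 of them past 2-fold. Of all genes tested 36.9% were called lower, and 11.4% were lower past 2-fold. The 9 genes had a median log2 fold change of -1.13. Their summed level was 1237 ± 52.1 CPM in control and 576 ± 18.3 CPM with ILL. ACLY, which frees acetyl-CoA from citrate for both pathways, changed least of the called genes, from 156 ± 7.31 to 115 ± 6.20 CPM (-0.44, adjusted p = 1.88e-07). ACACA, the carboxylase that commits acetyl-CoA to fatty acids, had 146, 150.2 and 149.8 CPM in control and 71.9, 78.4 and 68.7 CPM with ILL. Its fold change of 0.491 was close to the cutoff, though the groups were far apart. FASN, the fatty acid synthase and the member with the most reads, had 312, 364 and 316 CPM in control and 119, 129 and 117 CPM with ILL. FASN fell by 1.44 (SE 0.06, adjusted p = 1.52e-16), and every ILL library was below every control library.

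The enzymes that lengthen and desaturate the chain also fell. SCD, the desaturase that makes oleate, had 209, 224 and 199.9 CPM in control and 96.3, 98.5 and 97.0 CPM with ILL, and fell by 1.12 (SE 0.05, adjusted p = 3.36e-15). ELOVL6, which elongates saturated chains, had 64.4, 58.1 and 61.0 CPM in control and 25.3, 27.0 and 25.4 CPM with ILL, and fell by 1.24 (SE 0.07). ELOVL5, which elongates polyunsaturated chains, had 153, 149 and 142 CPM in control and 63.3, 59.4 and 58.7 CPM with ILL, and fell by 1.29 (SE 0.06). Both elongases fell alike in size: per length the ELOVL6 level was 0.230 ± 0.0115 times the ELOVL5 level in control and 0.239 ± 0.0151 times with ILL, a difference within the spread of the libraries. FADS1 and FADS2, the neighbouring desaturase genes of polyunsaturated fatty acids, fell by 1.13 (SE 0.06) and 1.52 (SE 0.08). FADS1 had 125, 128 and 119 CPM in control and 61.3, 53.9 and 54.7 CPM with ILL. FADS2 had 43.2, 51.8 and 45.4 CPM in control and 15.6, 17.3 and 16.0 CPM with ILL, also with no overlap. Their exons share 490 bases on opposite strands. LPIN1, a phosphatidate phosphatase at the turn to glycerolipids, did not pass, at 11.1 ± 1.08 and 9.52 ± 1.37 CPM (adjusted p = 0.145).

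Per length, the levels of the members spanned a wide range in control, from 1.65 ± 0.155 FPKM for LPIN1 and 1.999 ± 0.140 for STARD4 to 78.4 ± 2.19 FPKM for FDPS. Below FDPS stood SCD at 41.2 ± 2.43, ELOVL5 at 40.7 ± 1.75, DHCR7 at 40.2 ± 1.67, FASN at 40.0 ± 3.50 and FDFT1 at 39.2 ± 0.551 FPKM, which did not differ beyond their spread. With ILL, FDPS was still highest at 37.2 ± 1.35 FPKM, followed by ACLY at 25.0 ± 1.20 and SREBF1 at 22.9 ± 1.32 FPKM. STARD4 was lowest, at 0.485 ± 0.0849 FPKM. Of the former neighbours, SCD stood at 18.1 ± 0.111, FDFT1 at 17.4 ± 1.23, ELOVL5 at 15.9 ± 0.728, FASN at 14.0 ± 0.705 and DHCR7 at 11.2 ± 0.663 FPKM. SCD overlapped FDFT1 and FDFT1 overlapped ELOVL5 among the ILL libraries, while FASN lay below these genes and DHCR7 below FASN in every ILL library. The SCD level was 1.03 ± 0.0456 times that of FASN in control and 1.29 ± 0.0563 times with ILL. Control replicate 2 had the highest CPM of its group in 22 of the 33 members, while among ILL replicates 1 to 3 the numbers were 11, 13 and 9. The same was not counted over all genes tested, so it cannot be called a trait of the members.

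**Figure D5:**
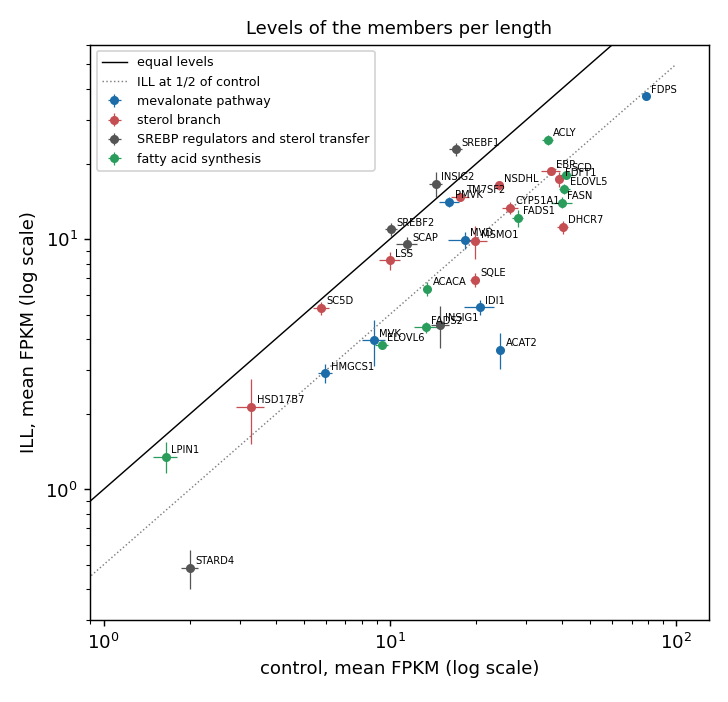
Each point is a member, with its mean FPKM in control on the x axis and with ILL on the y axis, both log scales, bars for the SD (n = 3) and colours for the role. The solid line marks equal levels and the dotted line a fold change of 0.5, near which most enzymes lie. INSIG2, SREBF1 and SREBF2 lie above the solid line.

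Other genes of the same pathways were less uniform. Of 26 further synthesis genes and SREBP targets, 21 were tested, with a median log2 fold change of -0.14. Of these, 11 fell (52.4%), 5 rose (23.8%) and 5 did not pass, where 36.9% of all genes tested were called lower and 36.2% higher. Those that fell past 2-fold included TMEM97, HACD3 and LBR, the last named after its values were seen. TMEM97, a sterol-responsive membrane protein, had 63.6, 64.5 and 60.8 CPM in control and 3.77, 4.01 and 4.12 CPM with ILL. Its fall of 3.99 (SE 0.09, adjusted p = 6.22e-22) was larger than that of any of the 33 members. HACD3, a dehydratase of fatty acid elongation, and LBR, a lamin receptor with sterol reductase activity, both had log2 fold changes of -1.15. The genes that rose most were HACD1 (0.52), MID1IP1, an activator of acetyl-CoA carboxylase (0.40), and ACSS2, the acetyl-CoA synthetase (0.40).

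Genes that act on SREBP processing or on sterol-regulated degradation showed no common direction. Of 12 tested, 5 rose (41.7%) and 4 fell (33.3%), with a median log2 fold change of -0.01. These shares lay near those of all genes tested, 36.2% called higher and 36.9% lower. MBTPS1, the protease that makes the opening cut in SREBPs, rose from 88.0 ± 3.96 to 114 ± 1.53 CPM (0.37), and SPRING1, a cofactor of that protease, rose by 0.35. RNF139, a ubiquitin ligase of the endoplasmic reticulum, rose by 0.42. ERLIN1, a lipid-raft protein that takes part in degradation of sterol-regulated proteins, fell from 47.6 ± 1.49 to 20.8 ± 0.578 CPM (-1.19). The ubiquitin ligase RNF145 fell by 0.96.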

How the data were processed

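RNA was taken from HCCC9810 cells with TRIzol and sequenced as mRNA libraries, 3 from control and 3 from ILL cells. Raw counts of reads by gene symbol, and FPKM values made from them, were deposited by the authors, with 1 column per library and without pooling. The submitters' processing notes name GRCh38 and DESeq2, while the aligner, counter, strand setting and annotation are not given in the sources used here. All 88055 nonzero FPKM values equal the count divided by a gene length and the library's total, within 0.1%.

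Groups came from the sample labels. Counts were filtered with filterByExpr, normalized by TMM and fitted with edgeR 4.0.16 (R 4.3.3), ILL against control with no covariate, by the quasi-likelihood test with Benjamini-Hochberg adjustment over 13066 genes. The authors' cutoffs (0.05, and a fold change above 2 or under 0.5) were used. CPM use TMM-scaled totals, and levels were compared between genes only as FPKM. At these depths and a biological coefficient of variation of 0.0717, precision is set by the spread between libraries, and replicates differed by more than counting noise (chi-square per degree of freedom 5.09 to 11.5). Exon overlaps and positions used GENCODE release 29, and start-site windows used RefSeq. Lengths implied by the FPKM differed from those exons, as for MVK (2730 against 6480 bases) and FDPS (1698 against 3718 bases). The overlap shares therefore need not hold for the gene models behind the counts.

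The members, gene lists and tests were chosen with earlier results of these data known, so no count over them is independent support. All members were named, with values in every library for those called at 2-fold and for the 6 regulators and carriers. From each other list at most 3 genes at each end were named, among those with an adjusted p under 0.05, an average of 1 CPM or more and groups that did not overlap. Some genes of these lists are not reported here. Alternatives were scaling by total counts alone, DESeq2 size factors, DESeq2 1.42.0, a filter of 10 counts in every library or of 1 count in all, leaving out each library, a block on the replicate number, and limma 3.58.1 on log2 of FPKM plus 1 (with and without a filter of 1 FPKM) or plus 0.1. The fits were also run on simulated data with far fewer changed genes than were called here, which cannot show their error rates in these data.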

Additional observations from a re-analysis of the deposited data

How the results depend on the processing

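Over the 15 alternatives, 26 of the 33 members kept both direction and side of the threshold in every one, and no member changed direction. Members called lower numbered 24 to 28, those past 2-fold lower 14 to 18, and none was past 2-fold higher. With limma on log2(FPKM + 1) without a filter, 1 member was called higher (SREBF1), since INSIG2 (adjusted p = 0.112) and SREBF2 lost their calls. With scaling by total counts alone the median of the members was -1.03 and that of all genes tested to -0.07. On log2(FPKM + 0.1) the median of all genes tested was -0.10 and that of the members -1.02, and PMVK passed the threshold as lower in both filtered limma fits. The cause of these changes was not tested. With the replicate number as a block, 26 members were called lower, 3 higher and 16 past 2-fold lower, and only TM7SF2 lost its call (adjusted p = 0.0545). Deviations of same-numbered libraries correlated at 0.0107, -0.0218 and -0.0179, and those of differently numbered libraries at -0.0128 to 0.0298. Libraries of the same number thus showed no shared deviation, which cannot tell whether samples were handled in pairs. Without 1 library, lower calls ranged from 24 to 26, higher calls from 2 to 3, 2-fold lower calls from 14 to 17 and the median from -1.01 to -0.93. Limits: fold changes near 0.5 (MVK, FDPS, ACACA, HMGCS1, MSMO1) cross the cutoff with the setting, and with 3 libraries a group, the calls of LSS, TM7SF2, HSD17B7, SCAP and SREBF2 were each lost on leaving out 1 library or another.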

Other observations

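Genes that store, move or export sterols went mostly the other way from the synthesis genes. Of 20 tested, 13 rose, 5 fell and 2 did not pass, with a median log2 fold change of 0.41. Among all genes tested 36.2% were called higher and 36.9% lower. Past 2-fold, 5 of the 20 rose and 1 fell, against 12.5% and 11.4% of all genes tested. ABCG1, a sterol exporter under liver X receptors, rose from 3.50 ± 0.573 to 27.7 ± 1.05 CPM (log2 fold change 2.99, SE 0.12, adjusted p = 6.24e-17). VLDLR, a lipoprotein receptor, rose from 3.58 ± 0.693 to 27.5 ± 1.10 CPM (2.94), and STARD5, a sterol-binding protein, from 2.04 ± 0.342 to 5.45 ± 0.0294 CPM (1.41). The other 2 that rose past 2-fold, OSBPL2 (1.24) and CYP27A1, were picked out after their values were seen, and CYP27A1 had 1 to 8 counts in control and 14 to 31 with ILL. NCEH1, a cholesteryl ester hydrolase, fell from 245 ± 11.7 to 112 ± 1.19 CPM (-1.13). SOAT1, which esterifies cholesterol for storage (-0.73), and SCARB1, a lipoprotein receptor (-0.66), also fell.

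In acyl-CoA and glycerolipid synthesis 12 of 18 genes tested rose and 3 fell, with a median of 0.36, where 36.2% of all genes tested were called higher and 36.9% lower. The lipid droplet coats PLIN2 (1.18) and PLIN3 (0.85) and the acyltransferase AGPAT4 (0.95) rose most, while AGPAT5 (-1.50), GPAM (-0.56) and GPAT3 (-0.49), acyltransferases as well, fell. In fatty acid oxidation 12 of 18 rose and 3 fell, with a median of 0.51, against the same shares of all genes tested. PPARA, the nuclear receptor that drives oxidation genes, rose from 3.02 ± 0.504 to 9.56 ± 0.915 CPM (1.66), and CPT1B (0.97), a carnitine acyltransferase, and DECR1 (0.82), a reductase of unsaturated acyl-CoA, rose. ECI2 (-0.84) and ECHS1 (-0.57), enzymes of the same chain of reactions, fell.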
